A study of Mus musculus with 21 samples.

Results

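The stefin A genes of the mouse were followed through sorted hematopoietic stem cells (HSC), the blood-forming cells of the bone marrow. Members were the genes whose symbols start with Stfa, together with BC100530, Gm5483, BC117090 and 2010005H15Rik. Of these 8 symbols, 6 were listed in both HSC tables, and they stood among 13380 genes that the tables shared. They were Stfa1, Stfa2, Stfa2l1, BC100530, Gm5483 and 2010005H15Rik, and Stfa3 and BC117090 were not analysed here. The family was chosen by its normalized counts in the HSC groups, where Stfa2l1 and BC100530 had stood out, so HSC values of all members are given below as a description, without a test.

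Stefins are small cytosolic proteins of the cystatin superfamily that bind the active site of papain-like cysteine proteases and block them. Their targets include the lysosomal cathepsins B, H, L and S. Humans have a single stefin A gene, whereas in mice repeated duplication has produced a cluster of similar genes, several of which are known as transcripts of neutrophils and other myeloid cells. Background knowledge of this kind was not tested by these data.

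Every animal in the study carried the MMTV-PyMT genotype, in which a mammary promoter drives a tumour-causing viral antigen. HSC were sorted at week 12 from sedentary mice and from physically active mice. The transplant group came at week 14 from sedentary mice that had received cells of a physically active mouse, so transplantation and week differ together from both other groups. Each HSC group had 3 libraries, described as biological replicates, and mammary tumours of sedentary and active mice at weeks 12 and 18 gave 12 further libraries of 20838963 to 28973775 reads. The labels state neither the sort markers nor whether replicates came from single or pooled animals. If samples shared a source, a p-value measures only the spread between them.

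HSC libraries held 16406889 to 72417315 reads. In each group replicate 3 was by far the deepest (58500940 reads or more), and its name alone contains a letter. All 12 HSC marker genes chosen for checking the label were listed, and Kit, the stem cell factor receptor, lay between 5111 and 7261 normalized counts in every library. Others of the 12 were less steady. Hoxa9 was at 1403 to 2037 in sedentary and 379.9 to 753 in transplant HSC. Slamf1 went the other way, at 47.4 to 51.1 in sedentary and 101.3 to 299.4 in transplant HSC. Active replicate 2 could not be pinned down. The labels call it library 6, and each of the HSC tables has a column numbered 6, yet these columns differed in their read counts at 13086 of the 13380 shared genes. Active replicates 1 and 3 differed between the tables at only 4 genes (Gm1821, Lars2, Rn45s and Ubb). Below, "active replicate 2" means the column of the table that pairs active with sedentary HSC. The column of the table that pairs active with transplant HSC is called its other column. Levels of members in active HSC, and differences of members that involve active HSC, are given for both columns.

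The members lie side by side on chromosome 16. In GENCODE M21 on GRCm38, the assembly of the mm10 build named in the submitters' processing notes, the 6 listed genes run from chr16:36156811 to chr16:36408457, a span of 252 kb. All 6 are annotated as protein-coding. Stfa2l1 (chr16:36156811-36161953), Gm5483 (chr16:36184212-36188111), 2010005H15Rik (chr16:36221468-36257444) and Stfa1 (chr16:36276951-36285373) are on the plus strand. BC100530 (chr16:36359382-36367748) and Stfa2 (chr16:36403992-36408457) are on the minus strand. RefSeq calls BC100530 Cstdc5, Gm5483 Cstdc4 and 2010005H15Rik Csta2.

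By transcript sequence the members form 3 close pairs. The longest coding transcripts of Stfa1 and BC100530 were identical at 97.1% of aligned bases, those of Stfa2 and Stfa2l1 at 96.0%, and those of Gm5483 and 2010005H15Rik at 94.9%. Between the pairs identity was 76.5% to 83.1%. Reads can therefore be credited to the wrong copy. Of the 50-base stretches of each member, 15.9% to 35.6% also occurred word for word in another gene's transcript, and of the 100-base stretches 0.0% to 13.1%. How the authors counted reads that match several genes was not given in the sources used here. Values of single members are thus uncertain within a pair, and sums are given beside them. Some 50-base stretches were also shared with genes outside the listed members. These were BC117090 and Csta1 for BC100530, BC117090 for Stfa1, Gm4758 and Gm49652 for Stfa2, and Gm49652 for Stfa2l1. Sums do not remove the uncertainty from those genes. Gm5483 and 2010005H15Rik shared stretches only with each other. BC100530 is also overlapped by an antisense gene. The kit marks strand, but whether counting used it was not given, so reads of the overlapping genes cannot be told apart.

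The promoters carry the same kinship. They are printed here because 5 of the 6 members share a block of letters just before the RefSeq start site that few other mouse genes have. RefSeq promoter windows on GRCm38.p6 were found for all 6 members, and 110 bases of each are shown, read 5′ to 3′ on the gene's own strand. They run from 100 bases before the RefSeq transcript start to 10 bases after it. That start matches the GENCODE coordinates above for Stfa2l1 and Gm5483. For Stfa1 and BC100530 the whole printed window lies inside the GENCODE gene, and for Stfa2 and 2010005H15Rik most of it does. Capitals mark the stretches AGAGGAGGAG and ACCTTTAAAACCC.
Stfa1, chr16:36277048-36277157, plus strand: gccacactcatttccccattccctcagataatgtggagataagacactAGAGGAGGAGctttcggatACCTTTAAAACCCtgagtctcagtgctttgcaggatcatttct
BC100530, chr16:36367561-36367670, minus strand: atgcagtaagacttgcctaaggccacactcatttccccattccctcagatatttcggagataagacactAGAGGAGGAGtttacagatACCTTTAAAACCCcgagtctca
Stfa2l1, chr16:36156711-36156820, plus strand: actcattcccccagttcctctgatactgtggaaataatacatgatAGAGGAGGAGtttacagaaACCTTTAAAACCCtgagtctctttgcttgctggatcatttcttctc
Stfa2, chr16:36408354-36408463, minus strand: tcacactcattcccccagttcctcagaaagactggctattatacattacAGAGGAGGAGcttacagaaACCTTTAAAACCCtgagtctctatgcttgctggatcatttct
Gm5483, chr16:36184112-36184221, plus strand: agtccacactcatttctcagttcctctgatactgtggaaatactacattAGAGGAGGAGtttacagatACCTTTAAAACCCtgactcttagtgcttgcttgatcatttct
2010005H15Rik, chr16:36221462-36221571, plus strand: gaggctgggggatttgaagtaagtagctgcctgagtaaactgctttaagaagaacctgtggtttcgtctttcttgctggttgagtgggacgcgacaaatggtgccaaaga

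The stretch ACCTTTAAAACCC was in the windows of Stfa1, BC100530, Stfa2, Stfa2l1 and Gm5483. Among 32851 promoter windows of 300 bases, searched on both strands, it was in 9 (0.0274%), all of genes named Stfa, Csta, Cstdc or, once, Gm7260. Its first base lay 32 to 36 bases before the RefSeq start in 4 of these members and 12 bases before it in BC100530. AGAGGAGGAG stood upstream of it in the same 5 members and was in 1.03% of all windows. The window of 2010005H15Rik has neither stretch and was 67.5% to 70.6% identical to the others, although its transcript is close to that of Gm5483. Stfa1 and BC100530 were identical at 96.4% of aligned promoter bases, and Stfa2 and Stfa2l1 at 92.9%.

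Short motifs of known factors were also searched, on both strands of the 300-base windows. The C/EBP form TTGCNNAA was in Stfa1 and BC100530 (2 of 6 members) and in 10.8% of all windows. The PU.1 form GAGGAAG was in BC100530, Gm5483 and Stfa1 (3 of 6) and in 13.6% of all windows. The TATA box TATAAA was in 0 of 6 members and in 13.6% of all windows. A match describes letters only.

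As a family, the stefin A genes were scarce in sedentary HSC, abundant in all 3 transplant libraries, and spread over the whole range in active HSC. HSC values are normalized counts on 1 scale for all HSC columns, with recovered reads behind them. The family sum was 11.4, 35.3 and 59.0 in sedentary replicates 1, 2 and 3, from 7, 20 and 118 reads. In active HSC it was 325.0 in replicate 1, 3444 in replicate 2 and 27.7 in replicate 3, from 272, 2444 and 67 reads. Active replicate 3 thus lay inside the sedentary range, while active replicate 2 was the highest of all libraries. The other column of active replicate 2 gave 43.1, from 32 reads, also inside the sedentary range. In transplant HSC the sum was 1768, 810.7 and 739.9, from 1252, 662 and 1811 reads, and no transplant library overlapped a sedentary one.

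Group means of the family sum were 35.2 ± 23.8 (SD, n = 3) in sedentary, 1266 ± 1893 in active and 1106 ± 574 in transplant HSC. The SD of the active group exceeded its mean, and with the other column that group stood at 132 ± 167. With the column of the sedentary table, active and transplant HSC did not differ by mean beyond their spread, and the active mean was higher. With the other column every active library, at 325 or less, lay below every transplant library, at 739.9 or more. The order of these arithmetic means thus turned round with the choice of column. Means of log2(value + 1) kept their order. They were 9.996 in transplant HSC and 8.314 in active HSC, or 6.218 with the other column.

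Stfa1, an inhibitor of the cathepsins named above, gave the most reads of any member in every library. It stood at 8.18, 19.4 and 43.5 normalized counts in sedentary HSC. Active HSC had 130.2, 1798 and 17.8, with 31.0 in the other column of replicate 2. Transplant HSC had 1082, 428.6 and 269.7, all above the sedentary values. The lowest active value was below the sedentary value of replicate 2.

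BC100530, the near copy of Stfa1, had 0, 0 and 16 reads in sedentary HSC, the last equal to 7.996 normalized counts in replicate 3. Active HSC had 75.3, 785.0 and 4.13, with 5.39 in the other column. Its transplant values were 275.4, 153.1 and 197.3. They varied less among themselves than those of Stfa1, with a highest-to-lowest ratio of 1.80 against 4.01. Summed, Stfa1 and BC100530 gave 26.4 ± 22.5 in sedentary, 937 ± 1429 in active (87.9 ± 102.1 with the other column) and 802 ± 484 in transplant HSC (SD, n = 3).

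Gm5483 had 1.64, 14.1 and 3.50 normalized counts in sedentary HSC, from 1, 8 and 7 reads. Active HSC had 86.0, 620.1 and 4.13, with 1.35 in the other column, from 1 read. Transplant HSC had 257.0, 144.5 and 217.8. Its partner 2010005H15Rik was lower in active replicates 1 to 3 and in every transplant library, but not in sedentary replicates 1 and 3 or in the other column. It had 1.64, 1.76 and 4.00 in sedentary and 26.3, 108.5 and 1.24 in active HSC. The other column gave it 5.39, and transplant HSC had 142.6, 66.1 and 37.6. For both genes active replicate 3 was within or below the sedentary range, and every transplant value was above it. The pair's sum was 8.88 ± 6.41 in sedentary, 282 ± 390 in active (41.5 ± 61.3 with the other column) and 289 ± 98.8 in transplant HSC.

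Stfa2l1 and Stfa2 were the rarest members. Stfa2l1 had 0 reads in all 3 sedentary libraries. It had 6, 84 and 1 reads in active HSC (7.17, 118.4 and 0.413 normalized counts), with 0 in the other column, and 7, 12 and 39 reads in transplant HSC (9.89, 14.7 and 15.9). Each of the 3 active libraries thus had at least 1 read and no sedentary library had any, although active replicate 3 had only 1. A count of 0 allows 3 reads, taken over the sedentary group. With that allowance, and the transplant reads taken as exact, Stfa2l1 was 15.5-fold higher or more in transplant HSC. The same bound for active HSC was 24.3-fold, and 1.86-fold with the other column.

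Stfa2 was read in 4 of the 9 libraries. It had 10 reads in active replicate 2 and 1, 3 and 4 in the transplant libraries, and 0 in all sedentary libraries, in active replicates 1 and 3 and in the other column. The same allowance put it 2.13-fold or more higher in transplant and 2.67-fold or more higher in active than in sedentary HSC. Its 8 transplant and 10 active reads were taken as exact. That active bound rests on the 10 reads of 1 library. Intervals here cover counting error only, since the reads carried no molecular identifiers. Bounds cover only the counting error of the group at 0, so with few reads in the other group the difference could be smaller.

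**Figure D1:**
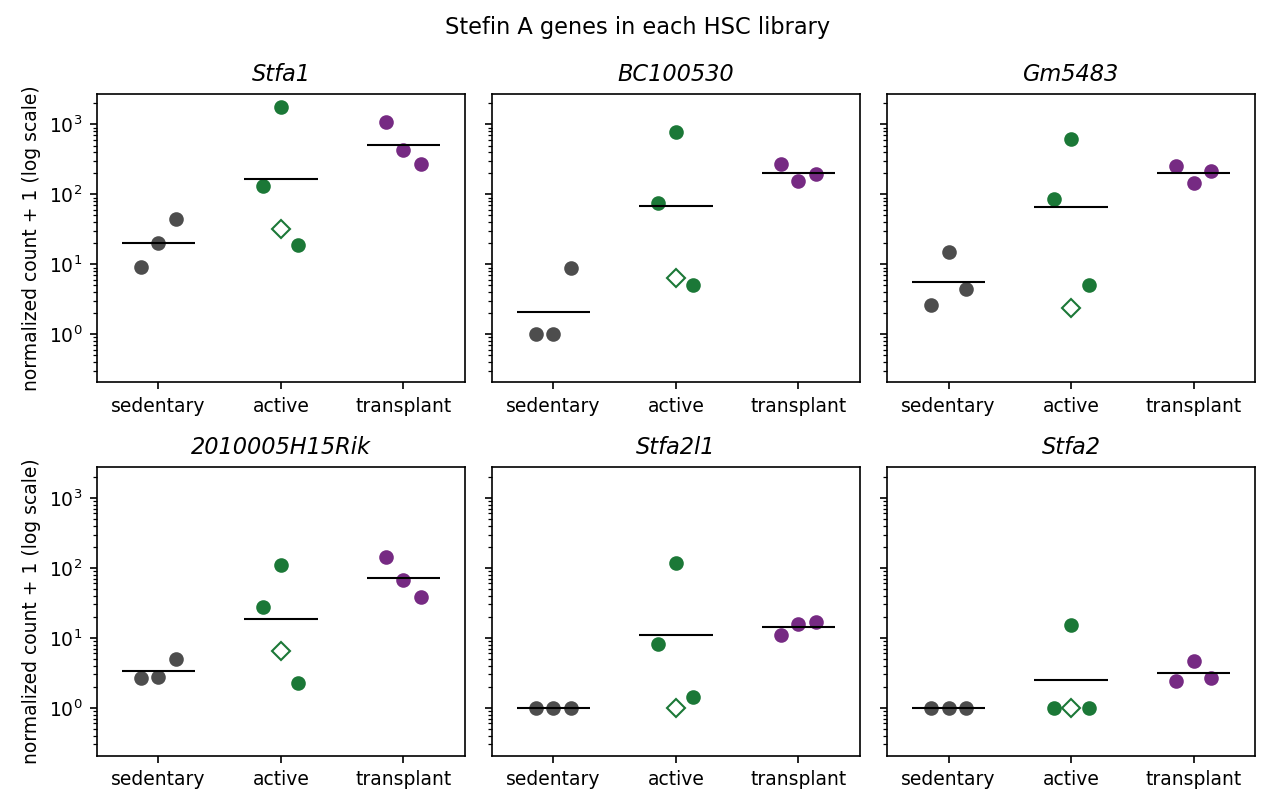
Normalized count plus 1, on a log axis, of each of the 6 stefin A genes in sedentary (grey), active (green) and transplant (purple) HSC. Each filled point is 1 library, with replicates 1 to 3 from left to right, open diamonds are the other column of active replicate 2, and bars are means of the log values of the filled points. The 3 transplant points lie above all sedentary points for every gene, and the active points span nearly the whole range.

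Per kilobase of the longest coding transcript, Stfa1 was the most abundant member in transplant HSC. It reached 962 ± 698 normalized counts per kb (SD, n = 3), followed by Gm5483 at 499 ± 138, BC100530 at 337 ± 100 and 2010005H15Rik at 128.5 ± 84.99. Stfa2l1 was at 32.2 ± 7.63 and Stfa2 at 4.76 ± 2.65. The first 3 overlapped between libraries, and in replicate 3 Gm5483 stood above Stfa1, at 526.0 against 437.1 per kb. The place of Gm5483 rests on the length used. Over the union of its annotated exons (1862 bases in place of 414), an alternative chosen after seeing the data, it was at 111 ± 30.7 per kb. That was below BC100530 at 264 ± 78.4 and within the spread of 2010005H15Rik, and below Stfa1 in every transplant library. On either length the ranges of Stfa2l1 and the more abundant members did not overlap.

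The share of each member in the family differed between libraries of the same group. In transplant HSC, Stfa1 took 61.2% of the family's reads in replicate 1 (95% Wilson interval 58.5% to 63.8%) but 36.4% in replicate 3 (34.3% to 38.7%). Gm5483 took 14.5% (12.7% to 16.6%) and 29.4% (27.4% to 31.6%) in the same libraries. In sedentary replicate 3, the sedentary library with the most reads, Stfa1 took 73.7% (65.1% to 80.8%). The pair of Stfa1 and BC100530 together took 55.0% to 87.3% of the reads over all libraries. The other sedentary libraries had 7 and 20 family reads, too few to place the shares closely.

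**Figure D2:**
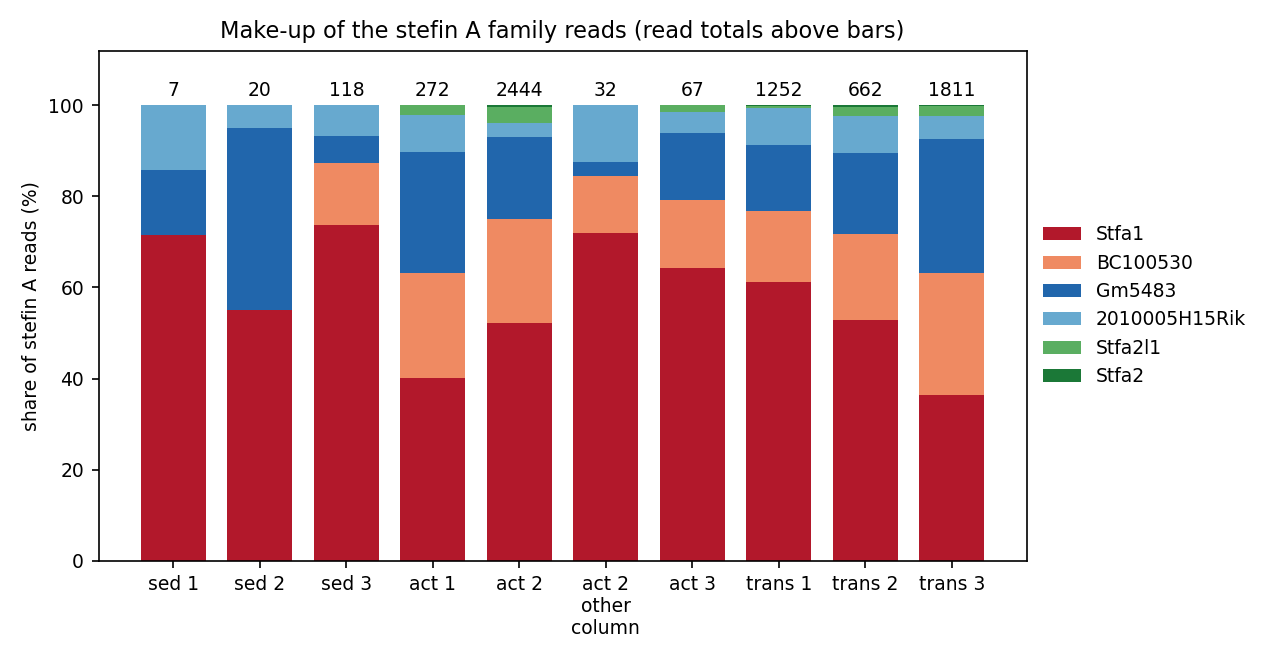
Share of the stefin A family's reads, in percent, that fell on each member in every HSC library, with the number of family reads above each bar. Red shades are Stfa1 and BC100530, blue shades Gm5483 and 2010005H15Rik, and green shades Stfa2l1 and Stfa2. Stfa1 is the largest part of each bar, from 36.4% in transplant replicate 3 to 73.7% in sedentary replicate 3.

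Transplant HSC were compared with sedentary HSC to ask how HSC of recipients differ from those of sedentary mice that received no transplant. All 6 members were higher in transplant HSC, with no overlap between groups. Over all 13329 genes tested, 20.3% were higher without overlap, and since these groups helped to choose the members nothing is read from the count. On the log2(value + 1) scale, which understates changes of low genes, the differences ranged from 1.62 for Stfa2 to 6.61 (SE 0.90) for BC100530. Stfa1 differed by 4.63 (SE 0.74), Gm5483 by 5.16 (SE 0.66) and 2010005H15Rik by 4.44 (SE 0.53). The members' median was 4.54, the same with Stfa2 and Stfa2l1 at their bounds, against 0.00 for all genes. For the family sum the difference was 5.09 (SE 0.78). Within replicates 1 and 2, the libraries named by plain numbers, it was 5.82.

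Active HSC were compared with sedentary HSC to ask what physical activity changed. Stfa2l1 alone of the 6 members was higher without overlap, against 10.4% of 13513 genes, and with the other column none was, against 3.17%. The log2 differences ran from 1.26 for Stfa2 to 4.94 (SE 1.94) for BC100530, with a median of 3.19, or 3.26 with 2 genes at their bounds. With the other column they ran from 0.85 for Gm5483 to 2.71 for BC100530 over the 5 members tested, with a median of 1.14, and Stfa2 was at 0 in both groups. For the family sum the difference was 3.40 (SE 2.10). It was 1.68 without active replicate 2, 5.14 without active replicate 3 and 1.31 with the other column. Limma called 0 of 13513 genes in this comparison, with 1252 (9.27%) at an unadjusted p under 0.05, while DESeq2 called 257 and edgeR 0.

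Transplant HSC were compared with active HSC within the table that holds both, where active replicate 2 is the other column. All 6 members were higher without overlap, beside 13.1% of 13633 genes. With the column of the sedentary table in its place, 0 of 6 were, beside 2.68%. The log2 differences ranged from 1.62 for Stfa2 to 4.31 (SE 1.34) for Gm5483, with a median of 3.42. With the column of the sedentary table they ranged from 0.39 for Stfa2 and Stfa2l1 to 1.96 for 2010005H15Rik, with a median of 1.61. For the family sum the difference was 3.77 (SE 1.15), and 1.68 with the column of the sedentary table. The 3 comparisons share libraries, so their values stand side by side and are not evidence for one another.

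Most markers of maturing neutrophils were also higher in transplant than in sedentary HSC. Of 16 neutrophil genes, 15 were joined between the tables, and 13 of these were higher without overlap, beside 20.3% of all genes. The exceptions were Csf3r, the G-CSF receptor gene, at 2493 to 3142 in sedentary and 2478 to 3879 in transplant HSC, and Mmp9, a granule protease gene. The list's summed level was 7918 to 8479 normalized counts in sedentary HSC. It was 23133, 151988 and 10055 in active replicates 1, 2 and 3, 7842 in the other column, and 41652 to 47301 in transplant HSC. Retnlg, a secreted factor of mature neutrophils, was at 0 reads in all 3 sedentary libraries and in active replicates 1 and 3, at 55.0 in active replicate 2, at 2.70 in its other column and at 1.63 to 7.35 in transplant HSC. Ngp, a granule protein gene, was at 83.4 to 296 in sedentary, 2222, 33048 and 447.0 in active (334.3 in the other column) and 5022 to 5651 in transplant HSC. Fewer cells of a type and less RNA per cell cannot be told apart in bulk samples, and the part of these cells in the stefin A values was not tested.

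Single markers differed widely in how far they moved. The family sum spanned 301-fold from the lowest to the highest of the 9 libraries. Ngp, Camp and Ltf spanned more (396-, 418- and 7125-fold), whereas Csf3r, Padi4, Cxcr2 and Mmp8 spanned 1.57- to 4.76-fold. Those 4 genes made up 77.4% to 86.4% of the list's sum in sedentary and 27.8% to 31.2% in transplant HSC, so the sum understates the change of the others. Per 1000 normalized counts of the list, the family sum was 1.45, 4.16 and 7.34 in sedentary HSC and 40.2, 19.5 and 15.6 in transplant HSC, so these groups did not overlap on this measure either. Active HSC gave 14.1, 22.7 and 2.75, with 5.50 in the other column. Set against S100a8 alone, an abundant neutrophil calcium-binding protein gene, the groups did overlap. Per 1000 counts of S100a8 the sum was 36.8, 68.7 and 202.4 in sedentary HSC and 271.4, 149.8 and 103.1 in transplant HSC.

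**Figure D3:**
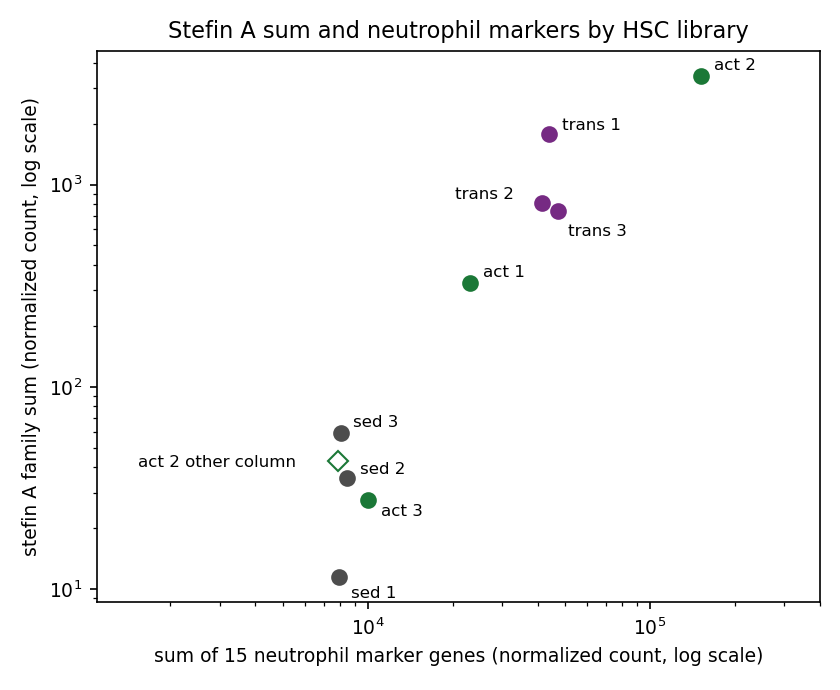
Stefin A family sum against the sum of 15 neutrophil marker genes, both as normalized counts on log axes, with 1 point per HSC library (grey sedentary, green active, purple transplant) and an open diamond for the other column of active replicate 2. Sedentary libraries, active replicate 3 and the other column lie together at the lower left, and active replicate 2 is farthest to the upper right.

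Sums of other marker lists also differed between sedentary and transplant HSC, some higher and some lower. The 12 HSC genes summed to 32275 to 34677 in sedentary and 20616 to 25864 in transplant HSC. In active HSC they gave 22954, 23879 and 33408, with 34801 in the other column. Cd34, the most abundant of them, was at 14287 to 17987 in sedentary and 5934 to 8394 in transplant HSC. The 5 primary granule genes, such as Mpo, summed to 90089 to 127719 in sedentary and 300539 to 391219 in transplant HSC. The 7 monocyte and macrophage genes gave 21467 to 23030 and 40972 to 75483, and the 6 megakaryocyte genes 2111 to 3811 and 8977 to 25984. Genes within a list did not all move alike. Of the monocyte list, Lyz2 was at 2107 to 5853 in sedentary and 14720 to 51827 in transplant HSC. Ccr2 of the same list was at 10410 to 15830 in sedentary and 6109 to 10954 in transplant HSC. Of 8 B cell genes only 3 were joined, with sums of 183 to 252 in sedentary and 113 to 155 in transplant HSC. The part of these cells in the stefin A values was likewise not tested.

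Across the 9 libraries, the members rose and fell in step. Pearson's r of log2(value + 1) between members was 0.770 to 0.977, and the 4 lowest values were all with Stfa2, which was at 0 in 5 libraries. Outside the family, 5 genes were most like its sum among 10805 genes with a mean of at least 50. Wfdc21, a member of the WAP four-disulfide core family (r = 0.990), came first, followed by Ccno, an atypical cyclin gene (r = 0.990). C5ar2, a receptor of the complement fragment C5a (r = 0.986), Sqrdl, a mitochondrial sulfide oxidase (r = 0.983), and Cracr2b (r = 0.982) completed the 5. Wfdc21 stood at 19.6, 38.8 and 51.0 in sedentary, 249.7, 1068 and 49.6 in active and 754.1, 651.5 and 413.5 in transplant HSC, and at 47.2 in the other column. With the other column it was again first at r = 0.990, and 2 of the 5 genes, Wfdc21 and Sqrdl, were still among the closest 5. Of the neutrophil markers with a mean of at least 50, Chil3 came nearest, at rank 13 with r = 0.980, and Csf3r was farthest, at rank 4488 with r = 0.222. These correlations describe libraries that share their scale and groups, so they carry no p-value.

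Other genes of the cystatin superfamily and cysteine proteases, not all of them stefin targets, were taken as a list of 26 genes, of which 13 were tested in HSC. In transplant against sedentary HSC, 5 of 13 rose and 0 fell at an adjusted p below 0.05, whereas of all genes 7.94% rose and 3.71% fell (11.7% in either direction). The list was written with earlier results of these data known, so nothing is read from its share beside that of all genes. Cstb, which encodes stefin B, the other cytosolic stefin, went from 358, 421 and 373 normalized counts in sedentary replicates to 1728, 1190 and 763 in transplant replicates. The groups did not overlap, and the log2 difference was 1.60 (SE 0.30, limma adjusted p = 0.0313). Cst7, which encodes cystatin F, a cystatin of immune cell lysosomes, rose by 0.79 (SE 0.14, limma adjusted p = 0.0277).

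Among the proteases, Ctsl (cathepsin L) rose from 1018 ± 148 to 1930 ± 187 (SD, n = 3), by 0.93 on the log2 scale (limma adjusted p = 0.023). Ctsb (cathepsin B) differed by 0.82 (limma adjusted p = 0.0484) and Ctss (cathepsin S) by 0.80 (limma adjusted p = 0.0331). Ctsh, an aminopeptidase-type cathepsin, differed by 0.44 (limma adjusted p = 0.0623), and Ctsc, the activator of granule serine proteases, by 0.47 (limma adjusted p = 0.107). Neither passed the threshold. The list's median difference was 0.47, beside 0.00 for all genes.

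These calls were narrow. Each was kept in 0 to 2 of the 6 fits that left out 1 library, with adjusted p from 0.021 to 0.157, while edgeR and DESeq2 on recovered reads called all 5. EdgeR called 7 higher and 0 lower, and DESeq2 9 higher and 1 lower (Lgmn). In active against sedentary HSC and in transplant against active HSC, 0 of 13 genes passed limma's threshold, beside 0% and 0.0513% of all genes. At an unadjusted p under 0.05 there were 1 and 2 list genes, edgeR called 0 in both, and DESeq2 called 0 and then 2 (Cst7 and Cstb). Cstb had log2 differences of 0.94 (SE 0.52) and 1.31 (SE 0.43) there. The first used active replicate 2, with Cstb at 1478, and the second its other column, with Cstb at 374.8. Differences of these list genes with the columns exchanged are not given.

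**Figure D4:**
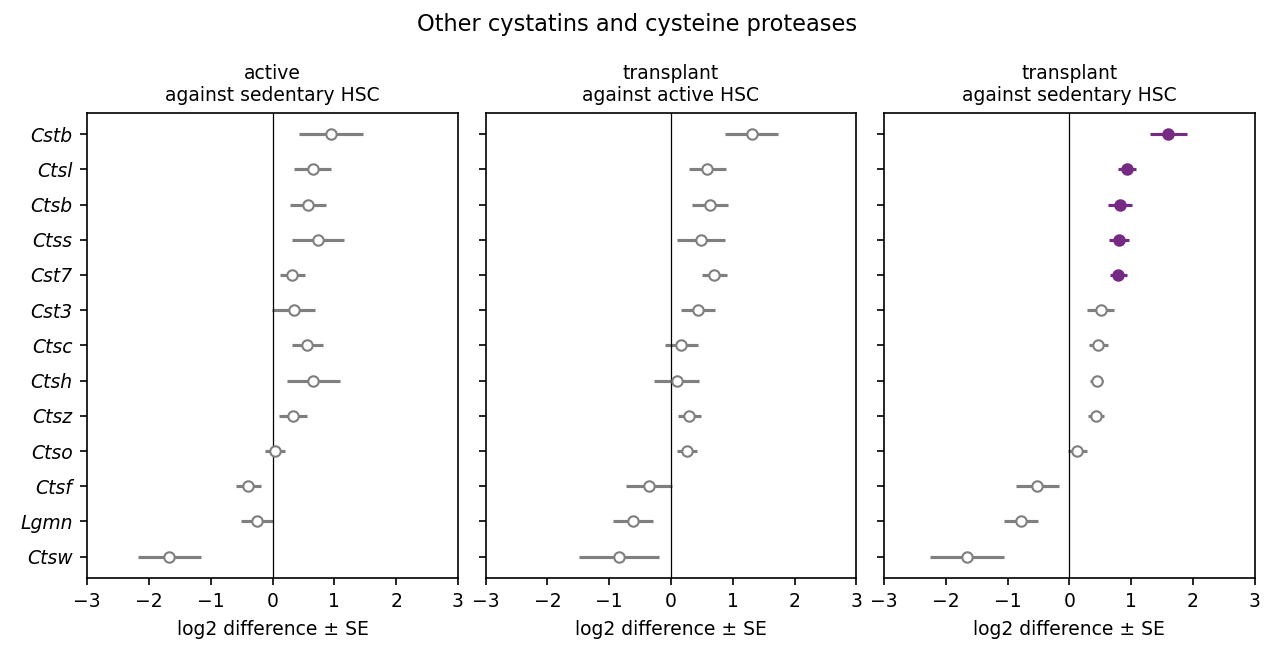
Log2 differences of 13 other cystatin and cysteine protease genes in the 3 HSC comparisons, with bars of 1 SE from limma. Filled points passed an adjusted p of 0.05. All 5 filled points, led by Cstb at 1.60, are in the comparison of transplant with sedentary HSC.

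Tumours were samples that the choice of genes did not use. They were searched for the member symbols named above and for Cstdc5, the RefSeq symbol of BC100530. Only Cstdc5 was found among the 19241 genes listed there. The RefSeq symbols of Gm5483 and 2010005H15Rik were not searched. Cstdc5 therefore also stands for the family sum, which may leave out members listed under other symbols. At week 12, Cstdc5 had 3, 10 and 4 reads in sedentary and 7, 4 and 7 in active tumours, equal to 5.96 ± 3.97 and 6.10 ± 1.86 normalized counts (SD, n = 3). The groups overlapped, with a log2 difference of 0.13 (SE 0.44, limma adjusted p = 0.982), beside 0.517% of 19162 genes called. At week 18, it had 3, 14 and 12 reads in sedentary and 7, 24 and 4 in active tumours, or 9.65 ± 5.97 and 10.6 ± 9.17 normalized counts. The log2 difference was 0.04 (SE 0.78, limma adjusted p = 0.994), beside 0% of 18939 genes called by limma (1131 had an unadjusted p under 0.05, DESeq2 called 52 and edgeR 0). Two-sided exact permutation tests gave p = 0.80 and p = 1.00, where 3 against 3 samples cannot go below 0.10. With 3 to 24 reads per library, only a large difference could have been seen.

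The 12 genes of the neutrophil list listed in the tumour tables summed to 22569 to 170185 normalized counts at week 12 and 27699 to 110505 at week 18, over both activity groups. Some of them, such as Lcn2 and Ltf, are also known from mammary epithelium, and the cells behind this sum were not tested. Of the other cystatins and proteases, 19 were tested in tumours and 0 passed the threshold of limma, edgeR or DESeq2 in either week. Under limma, 0 of them at week 12 and 2 at week 18 had an unadjusted p under 0.05.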

How the data were processed

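The authors deposited 4 tables of normalized signal per gene. Mouse build mm10 is named in the submitters' processing notes, and the aligner, counter and annotation were not given in the sources used here. The authors' deposited columns of log2 fold change, linear fold ratio, p-value, −log10 adjusted p and a test statistic or score were not used.

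Each column held whole multiples of 1 step, and value divided by step gave whole reads (within 0.05) for 100% of values. Recovered reads of the HSC tables were joined by gene symbol and brought to 1 scale with median-of-ratios factors. Limma 3.58.1 (R 4.3.3) was fitted to log2(value + 1) over genes whose mean reached 1 in at least 1 group, with Benjamini-Hochberg adjustment and a threshold of 0.05. Comparisons within 1 table used its deposited values. Alternatives were edgeR 4.0.16 and DESeq2 1.42.0 on recovered reads, other filters and pseudocounts, the column numbered 6 of the other HSC table, the replicate block, and fits without 1 library. On simulated counts with 200 genes changed by 3.00 (log2), limma recovered 90.0% of 200 among 13471 genes for active against sedentary HSC, 95.5% among 13313 for transplant against sedentary HSC and 76.0% among 18883 for tumours of week 18. Calls of unchanged genes numbered 10, 10 and 12. The changed genes were drawn only from genes above a set mean count, so these rates do not cover genes with few reads, such as Cstdc5 in tumours. Same-numbered libraries deviated together in all 3 pairs in transplant against active HSC (correlations 0.105, 0.116 and 0.318) and in tumours of week 18 (0.164, 0.159 and 0.139). In transplant against active HSC, active replicate 1 and transplant replicate 2 also had 0.105. The labels give no pairing, so whether the numbers pair samples is not known, and the main fits did not use them.

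Members, gene lists and tests were chosen with earlier results of these data known. Named genes were all listed members, the 5 genes most like the family sum, and from the list of cystatins and proteases Cstb, Ctsb, Ctsl, Ctss, Ctsh and Ctsc plus up to 5 called genes. Promoters came from RefSeq (GRCm38.p6), transcripts from GENCODE M21. Marker lists of the T and NK, erythroid, and mast and basophil lineages had 1 of 7, 6 of 8 and 6 of 6 genes joined. Their sums were 1338 to 1788, 161.9 to 197.5 and 1857 to 4895 in sedentary, and 3145 to 3864, 227.6 to 512.6 and 5806 to 16362 in transplant HSC. The T and NK values are those of Nkg7 alone.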

Additional observations from a re-analysis of the deposited data

How the results depend on the processing

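The sign of the family and member differences in HSC was kept under all alternatives run, except that Stfa2 gave 0.00 in active against sedentary HSC without active replicate 2 or with its other column. With the column of the sedentary table for library 6, the family difference of transplant against active HSC was 1.68. Leaving out 1 library gave family differences of 1.68 to 5.14 (active against sedentary), 3.09 to 4.84 (transplant against active) and 4.45 to 5.59 (transplant against sedentary). In tumours the family difference turned negative without 1 library in some fits, ranging from -0.09 to 0.57 at week 12 and from -0.57 to 0.57 at week 18, with exact permutation p of 0.60 to 1.00 in the reversed fits. Where Stfa2 or Stfa2l1 had groups at 0, a pseudocount of 0.1 in place of 1 enlarged the fitted difference (Stfa2l1 to 7.05 in transplant against sedentary HSC).

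Counts of genes past the threshold depended on the tool. DESeq2 called 257, 1107 and 3181 genes in active against sedentary, transplant against active and transplant against sedentary HSC, where limma called 0, 7 and 1553. EdgeR called 0, 1 and 2566 there. In tumours DESeq2 called 208 at week 12 and 52 at week 18, where limma called 99 and 0, the latter with 1131 genes at an unadjusted p under 0.05. A pseudocount of 0.1 gave 1 in active against sedentary HSC and 5 in week 18 tumours, and no filter gave 1 in week 18 tumours. In transplant against active HSC, the column of the sedentary table gave 1, and replicates 1 and 2 alone gave 0. Leaving out 1 library gave 0 to 79 in transplant against active HSC, 236 to 1674 in transplant against sedentary HSC, 9 to 71 at week 12 and 0 to 5 at week 18. The cause of these shifts was not tested.

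With the replicate block, 0 genes were called in transplant against active HSC, 95 in transplant against sedentary HSC and 0 in week 12 tumours. The block left 0 calls in active against sedentary HSC and in week 18 tumours, and tumour family differences of 0.13 and 0.04. Cstb, Cst7, Ctsb, Ctsl and Ctss in transplant against sedentary HSC lost their calls with it, at limma adjusted p of 0.0711 to 0.113. Depth limits the sedentary values, which rest on 7 to 118 family reads per library.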
